A study of Mus musculus with 4 samples.

Results

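The 38 Hox genes described here encode homeodomain transcription factors and lie in 4 clusters, with 10 genes of HoxA, 10 of HoxB, 9 of HoxC and 9 of HoxD. They were chosen by gene name, with a rule that uses no measured value, but with earlier results of these data known. All 38 were found among the 25909 genes that could be named in the expression table. Each is represented by the transcript with the longest gene body. They were followed across mouse embryonic fibroblasts (MEF) with and without *Hmga2*, untreated or stimulated with TGFB1.

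Hox genes give cells their position along the body. Within each cluster the order of the genes on the chromosome follows the order of their expression domains: genes with low paralog numbers, at the 3′ end, act towards the head, and genes with high paralog numbers, at the 5′ end, act towards the tail and, for HoxA and HoxD, in the distal limb and genital bud. HOX proteins bind DNA together with cofactors of the PBX and MEIS families, Polycomb and trithorax complexes hold the clusters off or on, and fibroblasts in culture are known to keep a Hox pattern that reflects the site they came from.

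The study asked how the high mobility group protein HMGA2, which binds AT-rich DNA in the minor groove, takes part in the transcriptional response to TGFB1. The 4 libraries came from immortalized MEF of C57BL/6 embryos at embryonic day 15.5, either *Hmga2*+/+ or *Hmga2*-/- (written *Hmga*-/- in one label), and each genotype was either Ctrl or TGFB1. All cells were starved overnight in medium with 1% fetal calf serum, the TGFB1 groups then received 10 ng/ml of TGFB1 for 24 h, and the Ctrl groups received the solvent. Per the labels the MEF were made from the embryo body after head, limbs, tail and inner organs had been taken away, and per the study's methods they were immortalized with SV40. Whether a genotype is represented by more than 1 cell line is not given in the sources used here. Each condition is represented by 1 library, so the differences below could not be checked against replicates and carry no p-values.

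RPKM, the reads of a transcript scaled to its length and to the mapped reads of the library, is a level per length and was compared between genes as well as between libraries. The low RPKM values were whole multiples of 1 read, which gave depths from 56140000 to 57300000 mapped reads per library and a read number for every value. *Hmga2* itself stood at 14.8 RPKM in *Hmga2*+/+ cells without TGFB1 and at 40.7 RPKM with it, and had 0 reads in both *Hmga2*-/- libraries, at least 1191-fold lower in Ctrl and at least 3298-fold lower under TGFB1 when 3 reads were taken as the floor. Of 10 fibroblast markers, 9 stood at 1 RPKM or more in all 4 libraries, with summed levels between 1902 and 2286 RPKM. The summed levels of markers of other tissues were between 0.411 and 1.04 RPKM for epithelium (5 genes) and 1.14 and 7.46 for endothelium (4 genes, *Tie1* at 0). They were between 1.26 and 1.63 for blood (4 genes, both globins at 0) and 2.05 and 6.13 for nerve (5 genes). For skeletal muscle they were between 0.006 and 0.052 (4 genes, *Myod1* and *Myog* at 0), and for cartilage between 2.09 and 6.21 (4 genes). Some of these markers reached 1 RPKM in a library: *Kdr* (at most 7.39) of endothelium, *Cd68* (1.63) of blood, *Sox2* (3.20) and *Tubb3* (4.37) of nerve. In cartilage they were *Sox9* (4.96) and *Acan* (1.15).

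The promoters of 4 members are shown because the results turn on these genes: *Hoxd13* had the highest level, *Hoxa13* the largest TGFB1 difference among members above 1 RPKM, *Hoxd12* the largest genotype difference among them, and *Hoxb1* had no read at all. Each line holds the 250 bases before the RefSeq start on the GRCm38.p6 assembly, 5′ to 3′ on the strand of the gene. Capitals mark CAGAC, the core of the SMAD-binding element, which reads GTCTG where it lies on the other strand. They also mark TATAAA, the letters of a TATA box, which reads TTTATA where it lies on the other strand, and the letters CCAAT of the CCAAT box, there written ATTGG. The windows are chr2:74667975-74668224 on the plus strand for *Hoxd13*, chr6:52260881-52261130 on the minus strand for *Hoxa13*, chr2:74674763-74675012 on the plus strand for *Hoxd12* and chr11:96365508-96365757 on the plus strand for *Hoxb1*.
Hoxd13: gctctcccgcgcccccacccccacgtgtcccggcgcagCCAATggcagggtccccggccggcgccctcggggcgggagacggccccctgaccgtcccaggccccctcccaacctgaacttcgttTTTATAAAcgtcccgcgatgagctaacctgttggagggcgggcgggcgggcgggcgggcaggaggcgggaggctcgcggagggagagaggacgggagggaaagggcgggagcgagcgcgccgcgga
Hoxa13: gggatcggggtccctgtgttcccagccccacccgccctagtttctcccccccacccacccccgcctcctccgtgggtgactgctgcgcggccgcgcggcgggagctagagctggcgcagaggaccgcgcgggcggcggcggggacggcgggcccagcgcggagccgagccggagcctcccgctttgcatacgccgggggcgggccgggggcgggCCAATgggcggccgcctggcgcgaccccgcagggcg
Hoxd12: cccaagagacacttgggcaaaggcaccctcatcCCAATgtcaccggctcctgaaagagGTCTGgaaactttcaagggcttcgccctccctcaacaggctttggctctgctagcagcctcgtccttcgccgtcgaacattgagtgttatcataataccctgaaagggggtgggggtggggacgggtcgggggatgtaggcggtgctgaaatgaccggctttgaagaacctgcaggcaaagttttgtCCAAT
Hoxb1: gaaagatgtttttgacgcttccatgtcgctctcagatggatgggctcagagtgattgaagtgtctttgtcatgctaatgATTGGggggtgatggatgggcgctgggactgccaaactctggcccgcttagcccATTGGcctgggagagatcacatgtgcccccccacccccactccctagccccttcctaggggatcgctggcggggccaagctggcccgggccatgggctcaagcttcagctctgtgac

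The *Hoxd13* window held 1 CCAAT and a palindromic stretch that counts as 2 overlapping TATAAA matches, one on each strand. The *Hoxa13* window held 1 CCAAT, that of *Hoxd12* held 2 CCAAT and 1 CAGAC, and that of *Hoxb1* held 2 CCAAT. The windows of *Hoxd13* and *Hoxa13* were rich in CpG, with 31 and 35, against 10 in *Hoxd12* and 7 in *Hoxb1*. The median was 6 over all 32851 promoters of the RefSeq table. Windows of some other members were rich in CpG too, with 28 in *Hoxa5* and 24 each in *Hoxa6* and *Hoxd1*. A RefSeq promoter was found for 22 of the 38 members, and these genes had 24 promoters with a median of 12.5 CpG. CCAAT stood in 14 of the 24 (58.3%, against 33.8% of all promoters), CAGAC in 7 (29.2%, against 42.2%) and TATAAA in 4 (16.7%, against 12.4%). A match describes these letters only and is not evidence that a factor binds there.

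The MEF expressed the HoxA and HoxD clusters, and within them mainly the 5′ genes. Of the 38 members, 12 reached 1 RPKM in at least 1 library, 7 of them in HoxA and 5 in HoxD, and 10 did so in all 4 libraries. HoxA and HoxD together held between 97.8% and 98.8% of the summed Hox RPKM of a library, and no HoxB or HoxC gene exceeded 0.465 RPKM. Grouped by paralog number, genes 9 to 13 held 88.3% of the sum in the *Hmga2*+/+ Ctrl library, 85.7% in *Hmga2*+/+ TGFB1, 87.2% in *Hmga2*-/- Ctrl and 86.1% in *Hmga2*-/- TGFB1. Genes 1 to 4 held at most 1.51% in any library. In a bulk library, fewer cells that express a gene and less of its RNA per cell cannot be told apart.

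**Figure D1:**
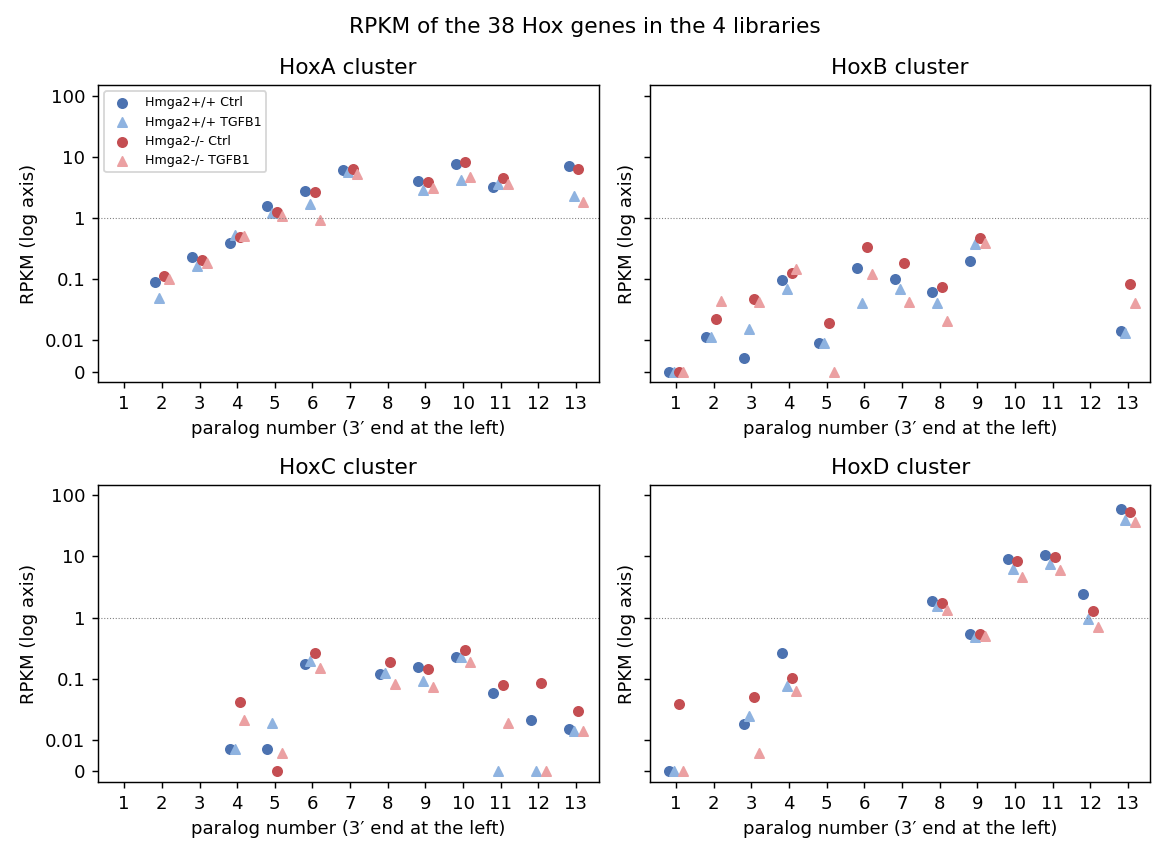
RPKM (log axis, with 0 drawn at the bottom mark) of the 38 Hox genes by paralog number, 1 panel per cluster and 1 point per library, with 1 RPKM as a dotted line. HoxA levels are higher at *Hoxa7* than at *Hoxa2*, which has at most 0.110 RPKM, HoxD peaks at *Hoxd13*, and all HoxB and HoxC points lie below 0.465 RPKM or at it.

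*Hoxd13* alone made up between 48.0% and 50.7% of the Hox RPKM. This most 5′ gene of its cluster shapes digits and the genital and urinary outlet, and its transcript lies at chr2:74668310-74671599 on the plus strand (mm10). It was measured at 60.7 RPKM in *Hmga2*+/+ Ctrl, 39.3 in *Hmga2*+/+ TGFB1, 53.5 in *Hmga2*-/- Ctrl and 36.7 in *Hmga2*-/- TGFB1, from 8446, 5585, 7513 and 5177 reads. Both Ctrl libraries lay above both TGFB1 libraries. Among 20804 protein-coding genes it ranked at position 367, 865, 464 and 1011 in the same order of libraries. The next member in every library was *Hoxd11*, and *Hoxd13* stood between 5.26 and 6.06 times above it in RPKM.

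Below, 4 values in a row follow the order *Hmga2*+/+ Ctrl, *Hmga2*+/+ TGFB1, *Hmga2*-/- Ctrl and *Hmga2*-/- TGFB1. In the HoxD cluster, *Hoxd11*, a patterning gene of the forearm and kidney, stood at 10.5, 7.47, 9.68 and 6.05 RPKM. *Hoxd10*, active in the hindlimb and its motor neurons, stood at 9.22, 6.32, 8.28 and 4.53 RPKM. For both genes the Ctrl libraries lay above the TGFB1 libraries in either genotype. *Hoxd12*, a partner of *Hoxd13* in the digits, stood lower than its neighbours on both sides, at 2.40, 0.945, 1.30 and 0.687 RPKM. *Hoxd8*, a gene of the trunk, stood at 1.84, 1.52, 1.72 and 1.34 RPKM. *Hoxd9*, active in limb and lumbar spine, was nearly level at 0.535, 0.474, 0.539 and 0.494 RPKM. The 3′ genes were close to the limit of detection. *Hoxd4*, a gene of the hindbrain and neck vertebrae, was measured at 0.266, 0.075, 0.104 and 0.062 RPKM, from 38, 11, 15 and 9 reads. *Hoxd3*, which patterns the first neck vertebrae, had 3, 4, 8 and 1 reads, and *Hoxd1*, which acts in sensory neurons, had 4 reads in *Hmga2*-/- Ctrl and none elsewhere. A share of 9.26% of the exonic bases of *Hoxd3* also belongs to *Hoxd4* on the same strand, and 53.1% of those of *Hoxd3* and 39.1% of those of *Hoxd4* to a further annotated transcript, *Gm28230*, so reads of these genes cannot be assigned with certainty. Smaller shares, 10.8% for *Hoxd11* and 5.73% for *Hoxd10*, also belong to *Gm28309* on the same strand.

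**Figure D2:**
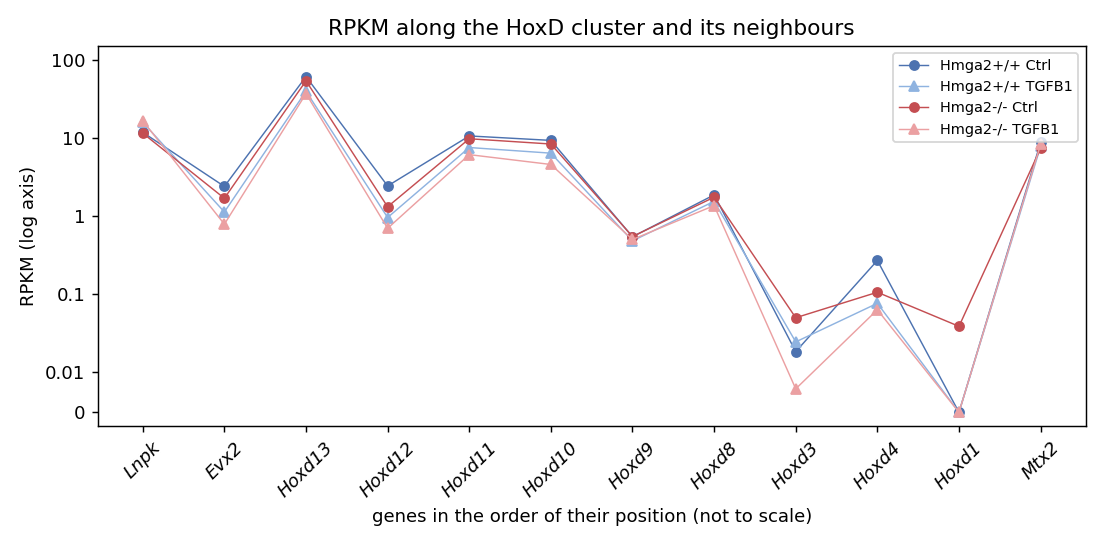
RPKM (log axis, with 0 drawn at the bottom mark) of the HoxD genes and 3 flanking genes in their order on chromosome 2 (not to scale), 1 line per library. The level is highest at *Hoxd13*, dips at *Hoxd12* and is low from *Hoxd3* to *Hoxd1*, while *Lnpk* and *Mtx2* outside the cluster stand between 7.28 and 16.4 RPKM.

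In the HoxA cluster the level was higher with each gene from *Hoxa2* up to *Hoxa7*, except that *Hoxa6* lay below *Hoxa5* in *Hmga2*-/- TGFB1. *Hoxa2*, which patterns the second pharyngeal arch, had 9, 5, 11 and 10 reads. *Hoxa3*, needed for thymus and parathyroid, stood at 0.225, 0.165, 0.202 and 0.180 RPKM, and *Hoxa4*, a gene of the neck vertebrae, at 0.385, 0.526, 0.475 and 0.495 RPKM. Neither of the latter showed a difference beyond its counting interval in any comparison. Of the exonic bases, 15.0% of those of *Hoxa2* and 8.01% of those of *Hoxa3* also belong to *Gm28308* on the same strand. *Hoxa5*, which acts in lung and shoulder, stood at 1.55, 1.20, 1.25 and 1.09 RPKM. *Hoxa6*, its neighbour, stood at 2.79, 1.68, 2.69 and 0.934 RPKM, lower in each TGFB1 library than in either Ctrl library. *Hoxa7*, a thoracic gene, stood at 6.10, 5.56, 6.29 and 5.22 RPKM and varied least of the HoxA genes above 5 RPKM. *Hoxa9*, known from blood stem cells and the oviduct, was measured at 4.05, 2.82, 3.86 and 3.05 RPKM. *Hoxa10*, which acts in uterus and femur, was measured at 7.46, 4.19, 8.29 and 4.68 RPKM, again with both Ctrl values above both TGFB1 values. *Hoxa11*, which acts in forearm, kidney and uterus, did not follow that order: it stood at 3.13, 3.63, 4.42 and 3.62 RPKM. *Hoxa13*, which patterns hand, foot and urogenital outlet, lies at chr6:52258853-52260880 on the minus strand (mm10). It stood at 6.98, 2.30, 6.19 and 1.81 RPKM, from 512, 172, 458 and 135 reads, with a wide gap between the Ctrl and the TGFB1 libraries.

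The HoxB and HoxC clusters were low throughout, and many of their genes were at or near the limit of detection. Summed levels were between 0.640 and 1.35 RPKM for HoxB and between 0.546 and 1.12 RPKM for HoxC. *Hoxb9*, a gene of the thorax and the highest of HoxB, stood at 0.198, 0.375, 0.465 and 0.391 RPKM, from 30, 58, 71 and 60 reads. *Hoxb6*, a trunk gene, had 11, 3, 25 and 9 reads, and *Hoxb4*, known from blood stem cells, had 14, 10, 18 and 21. Both TGFB1 libraries lay below both Ctrl libraries for *Hoxb6*, and the values of *Hoxb4* and *Hoxb9* showed no such order. Of the others, *Hoxb7* (trunk) had 7, 5, 13 and 3 reads and *Hoxb8* (trunk and microglia) 9, 6, 11 and 3. *Hoxb3* (hindbrain) had 1, 3, 9 and 8 reads, *Hoxb2* (hindbrain) 1, 1, 2 and 4, *Hoxb5* (neck and gut neurons) 1, 1, 2 and 0, and *Hoxb13* (prostate and tail) 1, 1, 6 and 3. *Hoxb1*, which marks a single segment of the hindbrain, had 0 reads in all 4 libraries, and a count of 0 allows up to 3 reads. In HoxC, *Hoxc10*, a lumbar and hindlimb gene, was the highest at 0.224, 0.228, 0.296 and 0.184 RPKM, and 8.70% of its exonic bases are shared with *Hoxc5*. *Hoxc6* (thorax) stood at 0.173, 0.192, 0.263 and 0.148 RPKM, *Hoxc8* (thorax and forelimb motor neurons) at 0.120, 0.125, 0.187 and 0.082, and *Hoxc9* (thorax) at 0.156, 0.092, 0.144 and 0.072. For these 4 genes the highest value was found in a Ctrl library and the lowest in *Hmga2*-/- TGFB1. *Hoxc4* (neck) had 1, 1, 6 and 3 reads, *Hoxc5* (neck) 1, 3, 0 and 1, *Hoxc11* (hindlimb and sacrum) 3, 0, 4 and 1, *Hoxc12* (tail) 1, 0, 4 and 0, and *Hoxc13* (hair and nail) 2, 2, 4 and 2. These 6 reads or fewer per library do not allow a comparison.

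**Figure D3:**
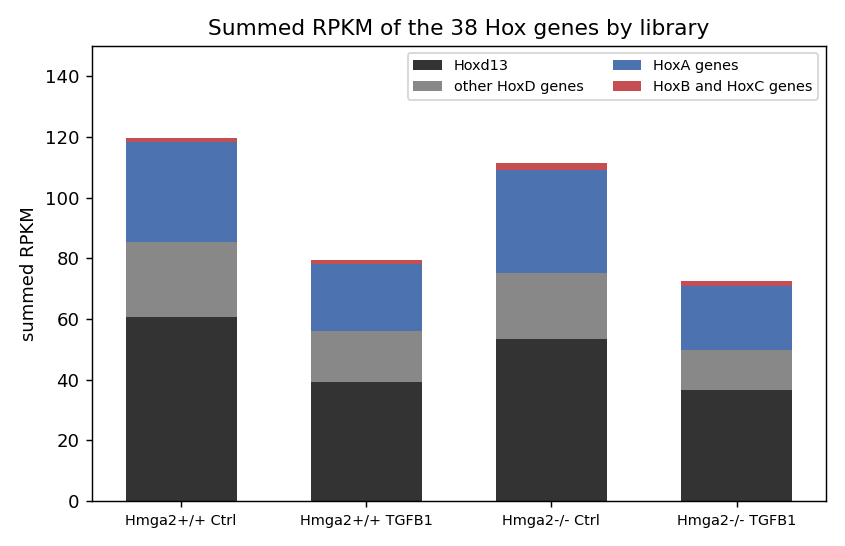
Summed RPKM of the 38 Hox genes in each of the 4 libraries, stacked into *Hoxd13*, the other HoxD genes, HoxA genes, and HoxB with HoxC genes. The bars reach 120, 79.6, 111 and 72.4 RPKM, the 2 TGFB1 bars are the lower ones, and *Hoxd13* fills about the lower 48.0% to 50.7% of each.

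For differences between libraries, only genes with a mean of at least 10 reads over the 4 libraries were counted: 23 of the 38 members passed, 9 of HoxA, 3 of HoxB, 4 of HoxC and 7 of HoxD, together with 13627 of all 25909 genes. *Hoxc9*, with a mean of 11.25 reads, was the member just inside and *Hoxa2*, with 8.75, the one just outside. The 15 members left out are *Hoxa2*, *Hoxd1*, *Hoxd3*, 7 of HoxB and 5 of HoxC, none above 13 reads or 0.181 RPKM in a library. A gene was counted as higher or lower at a difference of at least 1.5-fold in RPKM, the size used by the study. Bars and bracketed ranges are 95% exact intervals of the log2 ratio of 2 libraries and cover counting error only.

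TGFB1 was accompanied by a lower summed Hox level in both genotypes. In *Hmga2*+/+ the summed Hox level was 120 RPKM in Ctrl and 79.6 with TGFB1, a log2 difference of -0.59. In *Hmga2*-/- it was 111 and 72.4 RPKM, a log2 difference of -0.62. Without *Hoxd13* the differences of the sum were -0.55 and -0.70. By cluster, the differences of the sum in *Hmga2*+/+ were -0.57 for HoxA, -0.0045 for HoxB, -0.21 for HoxC and -0.61 for HoxD. In *Hmga2*-/- they were -0.67, -0.68, -1.04 and -0.59 in the same order. In *Hmga2*+/+, 8 of the 23 members were at least 1.5-fold lower and 1 was higher, where 21.9% of all genes under the same filter were lower and 12.5% higher, 34.5% in all. In *Hmga2*-/-, 12 of the 23 were lower and none higher, where 20.5% of all genes were lower and 14% higher, again 34.5% in all. Below 0 by any amount were 17 members in *Hmga2*+/+, where 56.7% of all genes were, and 21 in *Hmga2*-/-, where 52.3% were. The median log2 difference of the members was -0.49 in *Hmga2*+/+ and -0.68 in *Hmga2*-/-, against -0.09 and -0.03 for all genes. For the 16 HoxA and HoxD members that passed the filter it was -0.51 and -0.45. For the 7 of HoxB and HoxC it was 0.03 in *Hmga2*+/+, so these were not lower as a group there, and -0.83 in *Hmga2*-/-. The comparisons in the 2 genotypes share no library. Lower in both by at least 1.5-fold were 7 members, *Hoxa6*, *Hoxa10*, *Hoxa13*, *Hoxb6*, *Hoxc9*, *Hoxd4* and *Hoxd12*, where 16.3% of all genes were. Of these, *Hoxb6* and *Hoxc9* passed the filter only through Ctrl libraries, in which they were high. Their place among the 7, and among the 8 and the 12 above, is no support for a difference. Lower by any amount in both were 16 of the 23, where 46.8% of all genes were.

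**Figure D4:**
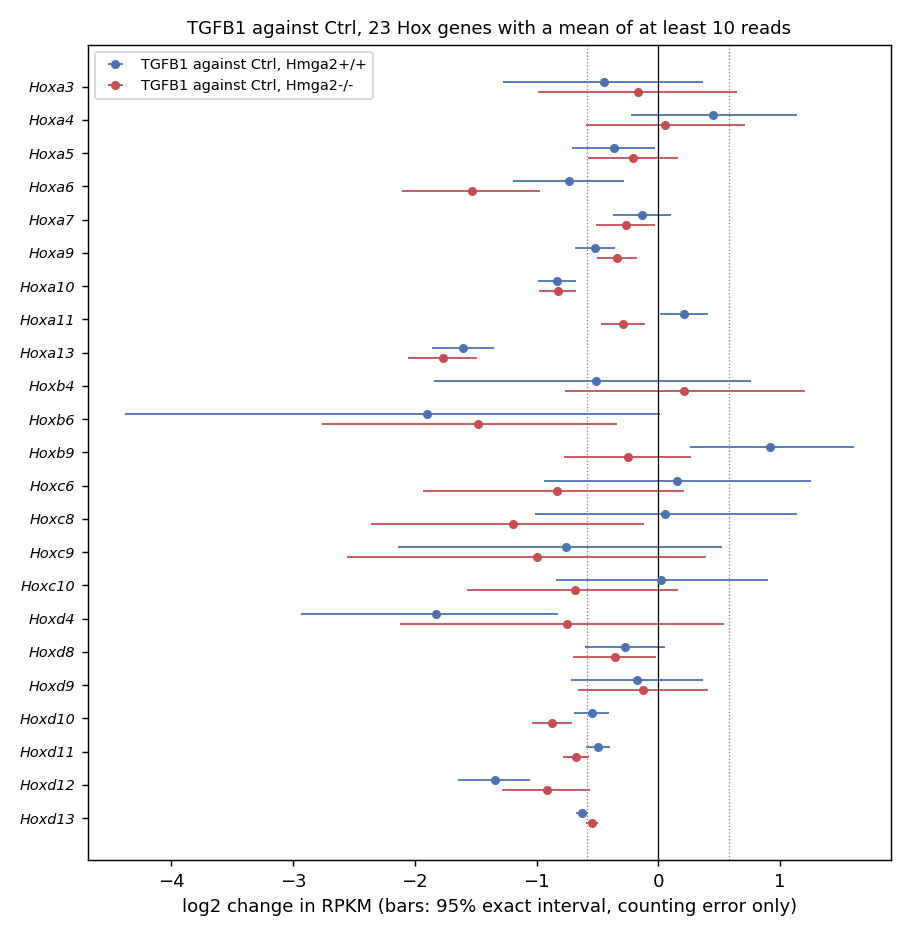
Log2 difference in RPKM between TGFB1 and Ctrl for the 23 Hox genes with a mean of at least 10 reads, in *Hmga2*+/+ (blue) and *Hmga2*-/- (red). Bars are 95% exact intervals for counting error, and dotted lines mark 1.5-fold. *Hoxa10*, *Hoxa13* and *Hoxd12* lie left of the line in both genotypes with short bars, whereas HoxB and HoxC genes have long bars.

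Among members with many reads, the largest TGFB1 difference was that of *Hoxa13*, 3.04-fold lower in *Hmga2*+/+ (log2 -1.60, -1.86 to -1.35) and 3.41-fold lower in *Hmga2*-/- (log2 -1.77, -2.06 to -1.49). *Hoxd12* was 2.54-fold lower in *Hmga2*+/+ (log2 -1.34, -1.64 to -1.05) and 1.89-fold lower in *Hmga2*-/- (log2 -0.92, -1.28 to -0.56). *Hoxa10* was lower by nearly the same factor in each genotype, 1.78-fold (log2 -0.83, -0.99 to -0.68) and 1.77-fold (log2 -0.83, -0.98 to -0.68). These 3 genes belong to the 5′ part of their clusters. *Hoxd13*, the most abundant, was 1.54-fold lower in *Hmga2*+/+ (log2 -0.63, -0.68 to -0.58) and 1.46-fold lower in *Hmga2*-/- (log2 -0.55, -0.60 to -0.49), on either side of the 1.5-fold line. When the libraries were rescaled by the median ratio over genes, its difference in *Hmga2*+/+ was -0.54 and no longer reached 1.5-fold. *Hoxd10* and *Hoxd11* were on the other side: *Hoxd10* was 1.46-fold lower in *Hmga2*+/+ and 1.83-fold lower in *Hmga2*-/-, and *Hoxd11* was 1.41-fold and 1.60-fold lower. *Hoxa6* was 1.66-fold lower in *Hmga2*+/+ (log2 -0.73, -1.19 to -0.28) and 2.88-fold lower in *Hmga2*-/- (log2 -1.53, -2.11 to -0.97). By contrast, *Hoxa3*, *Hoxa4*, *Hoxa5*, *Hoxa7*, *Hoxa9*, *Hoxa11*, *Hoxd8* and *Hoxd9* differed by less than 1.5-fold in both genotypes, with *Hoxa9* nearest to the line (log2 -0.52 and -0.34). *Hoxa11* was the only gene above 1 RPKM in all libraries that was higher under TGFB1 in one genotype, by 1.16-fold in *Hmga2*+/+ (log2 0.21, 0.02 to 0.41), and it was 1.22-fold lower in *Hmga2*-/- (log2 -0.29, -0.47 to -0.11).

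The members with few reads gave wider intervals. *Hoxd4* was 3.55-fold lower with TGFB1 in *Hmga2*+/+ (log2 -1.83, -2.94 to -0.82), and its interval in *Hmga2*-/- spanned 0 (log2 -0.75, -2.12 to 0.54). *Hoxb6* was measured 3.73-fold lower in *Hmga2*+/+ from 3 reads under TGFB1, with an interval that reached 0 (log2 -1.90, -4.38 to 0.02), and 2.79-fold lower in *Hmga2*-/- (log2 -1.48, -2.77 to -0.34). *Hoxb9* was 1.89-fold higher in *Hmga2*+/+ (log2 0.92, 0.26 to 1.61), the one member counted as higher with TGFB1 in either genotype. All 4 HoxC genes that passed were counted as lower in *Hmga2*-/-, by 2.28-fold for *Hoxc8* (log2 -1.19, -2.36 to -0.12), 2-fold for *Hoxc9*, 1.78-fold for *Hoxc6* and 1.61-fold for *Hoxc10*. The intervals of the last 3 spanned 0, and in *Hmga2*+/+ only *Hoxc9* of the 4 was counted. *Hoxb4* differed by less than 1.5-fold in both genotypes (log2 -0.51 and 0.22). *Hoxb6* passed the filter only through *Hmga2*-/- Ctrl and *Hoxc9* through its Ctrl libraries, with 3 and 9 and with 9 and 7 reads in the TGFB1 libraries. Their place among the members counted as lower is therefore no support for a difference.

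Fibroblast markers moved with TGFB1 too, in both directions. At least 1.5-fold lower in both genotypes were 5 of the 10 (*Col3a1*, *Pdgfra*, *Dcn*, *Lum* and *Fbln1*), where 16.3% of all genes were. Higher were 1 in *Hmga2*+/+ (12.5% of all genes) and 2 in *Hmga2*-/- (14%). These were *Thy1* in both genotypes (log2 0.69 and 1.11) and *Pdgfrb* in *Hmga2*-/- (log2 0.66). The summed level of the list was 1902, 1951, 2286 and 2171 RPKM. The endothelial sum was 1.14 RPKM in Ctrl and 4.53 with TGFB1 in *Hmga2*+/+, and 1.47 and 7.46 in *Hmga2*-/-, where *Kdr* was the one marker above 1 RPKM. In the same order the cartilage sum was 3.40, 6.02, 2.09 and 6.21 RPKM and the nerve sum 2.97, 6.13, 2.05 and 5.79 RPKM. The part of these shifts in the Hox differences was not tested.

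Between the genotypes the summed Hox level differed less than between TGFB1 and Ctrl. In Ctrl, the summed Hox RPKM was 120 in *Hmga2*+/+ and 111 in *Hmga2*-/- (log2 -0.10), and under TGFB1 it was 79.6 and 72.4 (log2 -0.14). In Ctrl, 4 of the 23 members were higher in *Hmga2*-/-, where 4.99% of all genes were, and 2 were lower, where 4.68% were (9.67% in either direction). The 4 higher ones were *Hoxb6*, *Hoxb9*, *Hoxc6* and *Hoxc8*, each under 0.5 RPKM, and the 2 lower ones were *Hoxd4* and *Hoxd12*. *Hoxb6* passed the filter only through *Hmga2*-/- Ctrl, the library in which it was high, and its count there is no support for a difference. Under TGFB1, 2 were higher (*Hoxb4* and *Hoxb6*), where 6.26% of all genes were, and 2 were lower (*Hoxa6* and *Hoxc8*), where 5.08% were (11.3% in either direction). Below 0 by any amount were 12 members in Ctrl, where 53.7% of all genes were, and 16 under TGFB1, where 43% were. The medians of the members were -0.05 in Ctrl and -0.14 under TGFB1, against -0.02 and 0.04 for all genes. The genotype comparisons and the TGFB1 comparisons share libraries, so their values are not independent of each other.

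**Figure D5:**
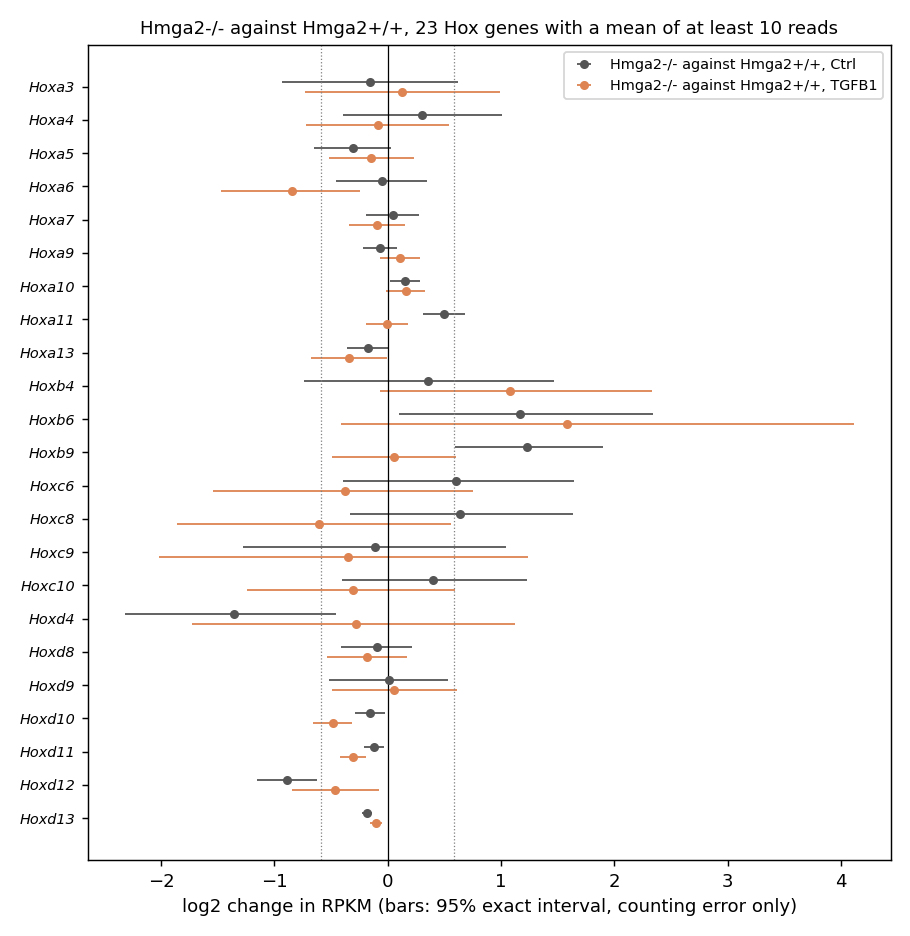
Log2 difference in RPKM between *Hmga2*-/- and *Hmga2*+/+ for the 23 Hox genes with a mean of at least 10 reads, in Ctrl (grey) and under TGFB1 (orange). Bars are 95% exact intervals for counting error, and dotted lines mark 1.5-fold. *Hoxd12* in Ctrl lies at -0.89 with a short bar, most HoxA and HoxD genes lie close to 0, and the points far to the right belong to HoxB genes with long bars.

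Of the genotype differences of at least 1.5-fold, that of *Hoxd12* in Ctrl had the most reads behind it, 341 reads in *Hmga2*+/+ Ctrl and 186 in *Hmga2*-/- Ctrl. It was 1.85-fold lower in *Hmga2*-/- (log2 -0.89, -1.15 to -0.62), and 1.38-fold lower under TGFB1 (log2 -0.46, -0.85 to -0.08). Its neighbours on both sides differed less in Ctrl: *Hoxd13* was 1.13-fold lower (log2 -0.18, -0.23 to -0.14) and *Hoxd11* 1.09-fold lower (log2 -0.12, -0.21 to -0.03). *Hoxd10* was 1.11-fold lower in Ctrl and 1.40-fold lower under TGFB1. Of the HoxD genes that passed, *Hoxd9* alone was not below 0 in Ctrl, at 0.01. *Hoxd4* was 2.56-fold lower in Ctrl (log2 -1.35, -2.32 to -0.46), from 38 and 15 reads, and its interval under TGFB1 spanned 0 (log2 -0.27, -1.73 to 1.13).

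In HoxA, *Hoxa11* was 1.41-fold higher in *Hmga2*-/- Ctrl (log2 0.50, 0.31 to 0.68) and level with *Hmga2*+/+ under TGFB1 (log2 0.00, -0.19 to 0.18). *Hoxa10* was 1.11-fold higher in Ctrl (log2 0.15, 0.02 to 0.28). *Hoxa6* was level in Ctrl (log2 -0.05, -0.45 to 0.35) and 1.80-fold lower in *Hmga2*-/- under TGFB1 (log2 -0.85, -1.47 to -0.25). *Hoxa13* was 1.13-fold lower in Ctrl (log2 -0.17, -0.36 to 0.01) and 1.27-fold lower under TGFB1. None of the 9 HoxA genes that passed reached 1.5-fold in Ctrl, where 9.67% of all genes did, and 4.16% of those with a mean of at least 1 RPKM. In HoxB, *Hoxb9* was 2.35-fold higher in *Hmga2*-/- Ctrl (log2 1.23, 0.60 to 1.90) but level under TGFB1 (log2 0.06, -0.49 to 0.60), and *Hoxb6* was 2.25-fold higher in Ctrl (log2 1.17, 0.10 to 2.34). The intervals of *Hoxb4* and *Hoxb6* under TGFB1 and of *Hoxc6* and *Hoxc8* in both comparisons spanned 0.

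The response to TGFB1 was also compared between the genotypes, as the log2 difference in *Hmga2*-/- minus that in *Hmga2*+/+. Of the 23 members, 2 were higher by at least 1.5-fold on this measure, where 6.11% of all genes were, and 5 were lower, where 5.09% were (11.2% in either direction). The higher ones were *Hoxd4* (1.08) and *Hoxb4* (0.73), and the lower ones *Hoxc8* (-1.25), *Hoxb9* (-1.17), *Hoxc6* (-0.98), *Hoxa6* (-0.79) and *Hoxc10* (-0.71). *Hoxa6* was the one gene among these 7 that exceeded 1 RPKM, with 109, 67, 106 and 37 reads. For *Hoxd13*, *Hoxa10* and *Hoxa13* the responses in the 2 genotypes lay close together, as given above. The median of the members was -0.14, against 0.04 for all genes.

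The cofactors of HOX proteins were measured as a list of 9 genes of the PBX, MEIS and PKNOX families, all of which passed the filter. With TGFB1, 2 were lower and 1 higher in *Hmga2*+/+, which is 22.2% and 11.1% of the list against 21.9% and 12.5% of all genes. In *Hmga2*-/-, 4 were lower and none higher, against 20.5% and 14% of all genes. Between genotypes, 1 was higher and 1 lower in Ctrl (4.99% and 4.68% of all genes) and also under TGFB1 (6.26% and 5.08%). *Pbx4*, a HOX cofactor, stood at 1.22, 0.393, 1.07 and 0.264 RPKM and was lower with TGFB1 in either genotype (log2 -1.63 and -2.02). *Meis1*, which helps HOX and PBX proteins to bind DNA, stood at 1.20, 1.04, 0.688 and 0.458 RPKM and was lower in *Hmga2*-/- in Ctrl (log2 -0.80) and under TGFB1 (log2 -1.18). *Meis3* differed the other way between genotypes, at 1.44, 1.03, 2.36 and 1.58 RPKM (log2 0.72 in Ctrl and 0.62 under TGFB1). *Pknox2* (log2 0.64 in *Hmga2*+/+ and 0.51 in *Hmga2*-/- with TGFB1) and *Meis2* (log2 -0.51 and -0.63) each passed 1.5-fold in 1 genotype and lay close to it in the other.

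A second list held the Cdx genes, which act upstream of Hox genes, and genes next to the clusters, 15 in all, of which 8 passed. *Evx2*, the homeobox gene beside *Hoxd13*, was the only one past 1.5-fold in any of the 4 comparisons, at 2.37, 1.11, 1.67 and 0.776 RPKM (log2 -1.09 in *Hmga2*+/+ and -1.10 in *Hmga2*-/- with TGFB1). Of all genes, 34.5% passed 1.5-fold with TGFB1 in each genotype. Between the genotypes 9.67% did in Ctrl and 11.3% under TGFB1. Outside the HoxD cluster on either side, and named here after their values were seen, *Lnpk*, a gene of the endoplasmic reticulum, stood at 11.7, 15.7, 11.4 and 16.4 RPKM and *Mtx2*, a mitochondrial import gene, at 8.68, 7.72, 7.28 and 8.18 RPKM. Unlike most HoxD genes, *Lnpk* was thus higher in both TGFB1 libraries. Of 11 noncoding genes of the clusters, 9 were found and 4 passed, of which 2 were lower and 1 higher with TGFB1 in *Hmga2*+/+ (21.9% and 12.5% of all genes) and 3 were lower in *Hmga2*-/- (20.5%). *Hottip*, a long noncoding RNA transcribed from the 5′ end of HoxA beside *Hoxa13*, stood at 0.725, 0.200, 0.504 and 0.214 RPKM (log2 -1.86 and -1.24 with TGFB1). *Hoxa11os*, antisense to *Hoxa11*, stood at 8.31, 4.17, 7.08 and 4.07 RPKM (log2 -0.99 and -0.80 with TGFB1), above *Hoxa11* in RPKM in all 4 libraries. *Hotairm1*, from the 3′ end of HoxA and also counted as lower in *Hmga2*-/-, had 8, 9, 18 and 11 reads. Its interval there spanned 0 (log2 -0.72, -1.95 to 0.44). It passed the filter only through *Hmga2*-/- Ctrl, the library in which it was high, and its count is no support for a difference. *Hoxaas2*, the one counted as higher, had 2, 11, 16 and 18 reads and passed the filter only through the *Hmga2*-/- libraries.

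The 18 Polycomb and trithorax genes, which keep Hox clusters silent or active, all passed. None differed by 1.5-fold between the genotypes in Ctrl, where 9.67% of all genes did, or under TGFB1, where 11.3% did. All 18 had a mean of at least 1 RPKM, and of all genes with such a mean only 4.16% differed in Ctrl. With TGFB1, 6 of the 18 (33.3%) were lower and none higher in each genotype, where 21.9% of all genes were lower in *Hmga2*+/+ and 20.5% in *Hmga2*-/-. Lower in both were 5, where 16.3% of all genes were, namely *Ezh1*, *Pcgf2*, *Cbx2*, *Cbx7* and *Cbx8*. *Cbx7*, a Polycomb reader of methylated histone H3, stood at 2.03, 0.845, 1.96 and 0.638 RPKM (log2 -1.26 and -1.62), and *Pcgf2*, also known as Mel18, at 7.98, 4.24, 6.98 and 3.97 RPKM (log2 -0.91 and -0.81). *Jarid2*, which recruits Polycomb complexes, differed by -1.07 in *Hmga2*+/+ and -0.58 in *Hmga2*-/- on the log2 scale, *Cbx2* by -0.77 and -0.63, and *Cbx8* by -0.68 and -0.93.

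Other transcription factors that mark position in mesenchyme were listed too, 40 genes of which 32 passed. With TGFB1, 13 were lower and 1 higher in *Hmga2*+/+, which is 40.6% and 3.13% of the list against 21.9% and 12.5% of all genes. In *Hmga2*-/-, 11 were lower and 1 higher, which is 34.4% and 3.13% against 20.5% and 14%. The higher one was *Irx3*, a gene of the proximal limb, at 1.54, 6.78, 2.32 and 8.62 RPKM (log2 2.14 and 1.89). Lower in both genotypes were 9 genes, where 16.3% of all genes were, namely *Tbx4*, *Tbx5*, *En1*, *Lhx2*, *Shox2*, *Msx1*, *Hand2*, *Barx1* and *Twist1*. *Msx1*, which marks undifferentiated limb mesenchyme, stood at 19.0, 5.84, 22.0 and 5.13 RPKM (log2 -1.71 and -2.10). *En1*, a gene of ventral limb ectoderm and of dermal fibroblasts, stood at 3.22, 1.43, 4.09 and 1.40 RPKM, and *Hand2*, which acts in the posterior limb bud, at 1.28, 0.493, 2.46 and 1.01 RPKM. *Tbx2* had 22, 7, 27 and 20 reads. Between genotypes, 7 of the 32 were higher and 6 lower in *Hmga2*-/- Ctrl (4.99% and 4.68% of all genes), and 8 higher and 4 lower under TGFB1 (6.26% and 5.08%). *Tbx4*, the hindlimb gene, stood at 6.81, 3.78, 2.81 and 1.63 RPKM and was lower in *Hmga2*-/- in Ctrl (log2 -1.28) and under TGFB1 (log2 -1.21). *Tbx5*, its forelimb counterpart, stood at 8.20, 3.83, 13.68 and 5.15 RPKM, higher in *Hmga2*-/- Ctrl (log2 0.74) and lower with TGFB1 in *Hmga2*-/- (log2 -1.41). *Tbx5* thus stood close to *Tbx4* in *Hmga2*+/+ and well above it in *Hmga2*-/-. *Alx1*, a gene of facial mesenchyme, had 4, 3, 28 and 20 reads and passed the filter only through the *Hmga2*-/- libraries, in which it was high. *Dlx5* (log2 -1.27) and *Barx1* (log2 -1.09) were lower in *Hmga2*-/- Ctrl, and *Gata4* was higher under TGFB1 (log2 1.33) from 8 and 20 reads. On the difference between the genotypes in the TGFB1 response, 4 of the 32 were higher and none lower, where 6.11% and 5.09% of all genes were.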

How the data were processed

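RNA was sequenced from 4 libraries, 1 per condition, with a stranded total RNA kit. Per the labels and the study's methods, the authors trimmed single-end reads with Trimmomatic, aligned them with HISAT2 2.1.0 to mm10 and counted them on the gene strand with HOMER, and deposited RPKM per transcript, without read counts. Reads shared by overlapping genes can enter more than 1 transcript. The study's methods speak of sequencing in duplicates of one experiment, but the table has 1 column per condition, and whether it pools duplicates is not given in the sources used here.

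From these RPKM, depth was derived from low values: of transcripts under 2000 bases and under 100 reads, 100% of values lay within 0.1 of a whole read. Transcripts (63759, of which 57708 or 90.5% were named) were matched to genes on the same strand by at least 50% of their span. RPKM was compared as log2 ratios with 0 set to 0.001, as in the study, with Clopper-Pearson intervals at 95% (scipy 1.17.1, Python 3.11.15). Counting covered genes with a mean of at least 10 reads. The members were named by list, and of the other lists at most 4 genes past 1.5-fold per comparison, largest first. Some genes of these lists are counted but not reported here by name. The members and lists were chosen with earlier results of these data known. Calculations were checked on simulated data. Alternatives were pseudocounts, scaling, filters, fold and choice of transcript.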

Additional observations from a re-analysis of the deposited data

Results flagged for a closer look

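Members whose TGFB1 difference had opposite signs in the 2 genotypes are listed here. The value is the log2 difference in *Hmga2*-/- minus that in *Hmga2*+/+, and with 1 library per condition the difference between the genotypes was not tested. For *Hoxa11*, with at least 402 reads in every library, it was -0.50 (0.21 in *Hmga2*+/+ and -0.29 in *Hmga2*-/-). For *Hoxb9* it was -1.17 (0.92 and -0.25), from 30 to 71 reads a library, and for *Hoxb4* 0.73 (-0.51 and 0.22), from 10 to 21 reads. In HoxC it was -1.25 for *Hoxc8* (0.06 and -1.19), -0.98 for *Hoxc6* (0.15 and -0.83) and -0.71 for *Hoxc10* (0.03 and -0.69), none with more than 32 reads in a library.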

How the results depend on the processing

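The counts of Hox genes past the fold depended on the settings for low values. In the order *Hmga2*-/- against *Hmga2*+/+ in Ctrl, TGFB1 in *Hmga2*+/+, TGFB1 in *Hmga2*-/-, *Hmga2*-/- against *Hmga2*+/+ under TGFB1, and the difference in response, the reported counts were 6, 9, 12, 4 and 7. With a pseudocount of 1 RPKM they were 0, 4, 5, 0 and 0. Without a filter, over 38 genes, they were 17, 15, 24, 15 and 21. With a mean of at least 1 RPKM, over 12 genes, they were 1, 5, 6, 1 and 1. With a fold of 2 they were 3, 4, 5, 2 and 3. Between genotypes in Ctrl, 9.67% of all genes passed as reported, and 1.67%, 17.4%, 4.16% and 3.55% in these 4 settings, in the same order. With TGFB1 in *Hmga2*+/+, 34.5% passed as reported, 16.8% with a pseudocount of 1 RPKM, 31% without a filter and 27.4% with the 1 RPKM mean. The 4 of 23 members counted there with that pseudocount were thus near the share of all genes. For the other alternative counts the share of all genes is not reported here. They show only how the number moves with the setting and are not read as a result about the members. With a pseudocount of 0.1 RPKM the count between genotypes under TGFB1 was 2. The other 19 of 40 alternative counts were within 1.5 times the reported one, all 100 alternative sums were within 1.5 times, and of 35 alternative medians 1 changed sign, that between genotypes in Ctrl (-0.05 as reported, 0.30 without a filter). Of 276 alternative values for single genes none changed sign and 10 crossed the fold, 9 of them with a pseudocount of 0.1 RPKM in *Hoxb4*, *Hoxc6*, *Hoxc8*, *Hoxc9*, *Hoxc10* and *Hoxd4*, and *Hoxd13* with TGFB1 in *Hmga2*+/+ (-0.54 after rescaling by the median ratio). No replicate could be left out. No paired analysis was possible because each condition had 1 library. Depth limits the HoxB and HoxC genes, of which none had more than 71 reads in a library, and differences between cultures cannot be told apart from those between conditions.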

Other observations

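Of the 38 Hox genes, 10 had more than 1 transcript in the table, and most of these gave like values. *Hoxa7* was the exception: its longest gene body (888 bases of transcript) stood at 6.10, 5.56, 6.29 and 5.22 RPKM in the order *Hmga2*+/+ Ctrl, *Hmga2*+/+ TGFB1, *Hmga2*-/- Ctrl and *Hmga2*-/- TGFB1. A transcript of 1948 bases stood at 2.93, 2.63, 2.96 and 2.48 RPKM, and one of 796 bases at 1.52, 1.21, 0.932 and 0.750 RPKM. The level of *Hoxa7*, and its place among the HoxA genes, thus depends on the transcript chosen. Between the genotypes the transcripts of 888, 1948 and 796 bases differed by 0.04, 0.01 and -0.71 in Ctrl on the log2 scale. All were counted from reads that the transcripts share in part, and a difference in splicing was not tested.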
